A study of Homo sapiens with 12 samples.

Results

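The genes described here are the stress transcription factors ATF4, ATF5, ATF3, JDP2, DDIT3 (which encodes CHOP), CEBPB and CEBPG, with the pseudokinase TRIB3 and the small chromatin-associated protein NUPR1. They were taken from a table of read counts by matching the gene symbols to Ensembl identifiers, which gave 9 genes of 60664. Of the 9, 8 passed the filter on low counts and were tested, among 17349 tested genes in all, and NUPR1 did not pass. The counts came from 12 poly(A) RNA libraries of 2 human B-cell acute lymphoblastic leukaemia lines, both labelled wild type. The Philadelphia chromosome of TOM-1 fuses BCR to ABL1, whereas KMT2A is rearranged in RS4;11. Growing cells of each line were treated with ADI-PEG20 at 1000 ng/ml for 24 h or kept as controls, with 3 libraries in each of the 4 groups. ADI-PEG20 consists of arginine deiminase linked to polyethylene glycol and turns the arginine of the medium into citrulline. The labels do not say what the control cultures received or whether the 3 libraries of a group came from separate cultures, so the p-values measure the spread between these libraries, which may be technical. Each genotype is represented by a single line.

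When an amino acid is scarce, uncharged tRNA activates the kinase GCN2, which phosphorylates eIF2 alpha, lowers protein synthesis in general and favours translation of a few mRNAs. ATF4 is one of them: short reading frames upstream of its coding sequence hold its translation back until eIF2 alpha is phosphorylated, and ATF5 and DDIT3 mRNAs carry upstream reading frames too. ATF4 binds composite C/EBP-ATF elements, mostly as a dimer with a C/EBP partner such as CEBPG or CEBPB, and raises transcription of amino acid transporters, aminoacyl-tRNA synthetases and other factors of the same class. These factors belong to the basic leucine zipper (bZIP) class, which binds DNA as dimers. TRIB3 is a target of ATF4 and CHOP that binds ATF4 and limits its activity. Only RNA was measured, so protein levels and phosphorylation are outside these data.

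Total counts per library ran from 18958144 to 35956959. The third TOM-1 control library stood apart: 14963 genes were detected in it, against 19857 to 21997 in the other 11, and ribosomal protein genes took 19.75% of its counts, against 5.91% to 9.89%. It was also the TOM-1 control library with the highest level of each of the 8 tested genes. The log2 gap to the mean of the other 2 control libraries was 1.12 for DDIT3, 0.84 for TRIB3, 0.83 for ATF4, 0.75 for CEBPB, 0.62 for ATF5, 0.34 for JDP2, 0.26 for ATF3 and 0.06 for CEBPG. Most counts of called genes and many of the values are therefore given with and without it, and the other values with it only. Its part in the results beyond that was not tested. All 9 B-cell precursor markers had more than 3 counts in each group, with a summed level of 6062 to 8223 normalised counts (CPM, scaled to library size) in TOM-1 and 2690 to 3102 in RS4;11. Of 5 T-cell markers, CD3D, CD3G and CD2 had 3 counts or fewer in every library. The T-cell list summed to 122.7 to 210.3 CPM in TOM-1 and 424 to 479 in RS4;11. TRAC was the 1 marker of it with more than 3 counts in each group but treated RS4;11, where CD3E passed 3 counts too. The 6 myeloid markers summed to 10.2 to 26.7 CPM over all libraries. Of 4 epithelial and stromal markers EPCAM and KRT18 had 3 counts or fewer in every library, and the list, with COL1A1 and PECAM1, summed to 185 to 254 CPM in TOM-1 and 3.79 to 7.84 in RS4;11. The part of these markers in the results was not tested. HOXA9, HOXA10 and MEIS1, which mark leukaemia with rearranged KMT2A, had 3 counts or fewer in every TOM-1 library and more in RS4;11. In bulk libraries, fewer cells with an mRNA and less of that mRNA per cell cannot be told apart.

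Promoter sequences from RefSeq (build GRCh38.p14), windows of 300 bases from 250 before to 50 after an annotated start, were found for 8 of the 9 genes, 19 windows in all. NUPR1 had no entry. Those shown hold the binding element of ATF4 with C/EBP partners, which lies in 3 of the 19 windows, 1 each of ATF3, CEBPG and JDP2. The other windows of these 3 genes did not hold it. Neither did any window of ATF5, DDIT3, CEBPB and TRIB3, whose mRNA rose in TOM-1 too, or of ATF4. Both strands were searched for TGATGNAA, the C/EBP-ATF composite element, which 3.62% of all 35116 windows held. The capitals mark the match, the sequence reads 5′ to 3′ on the strand of the gene (+), and only the stretch that touches no annotated exon is printed.
ATF3, chr1:212565157-212565333: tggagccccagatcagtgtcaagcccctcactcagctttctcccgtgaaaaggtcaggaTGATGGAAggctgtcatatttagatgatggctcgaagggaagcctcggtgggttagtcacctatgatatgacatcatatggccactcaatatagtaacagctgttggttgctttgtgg
CEBPG, chr19:33373896-33374112: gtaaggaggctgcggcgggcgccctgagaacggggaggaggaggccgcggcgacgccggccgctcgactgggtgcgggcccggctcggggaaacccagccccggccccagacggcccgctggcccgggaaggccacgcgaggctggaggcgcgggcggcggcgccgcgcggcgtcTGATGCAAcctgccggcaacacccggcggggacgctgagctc
JDP2, chr14:75427850-75428021: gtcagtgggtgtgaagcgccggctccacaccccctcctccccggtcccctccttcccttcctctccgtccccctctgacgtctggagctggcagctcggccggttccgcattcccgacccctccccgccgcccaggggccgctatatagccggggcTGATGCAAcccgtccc
The CEBPG and JDP2 matches are the same 8 letters, TGATGCAA, and lay close to the start, at -42 to -35 and at -16 to -9. The ATF3 match, TGATGGAA, lay farther out, at -191 to -184. The AP-1 element TGANTCA, held by 7.71% of all windows, was found in DDIT3 and ATF5 as TGACTCA. The C/EBP element TTGCNNAA, held by 10.5%, was found in ATF5 and ATF3, and each match lay in a window without the composite element. The cyclic AMP response element TGACGTCA (1.85% of all windows) and the ER stress element (0.0769%) were found in none of the 19 windows. Matches of different elements did not overlap. The letters searched were absent from the windows of ATF4, CEBPB and TRIB3. A match describes the sequence and is not evidence of binding, and a window of this length leaves out distal and intronic elements.

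In TOM-1, 7 of the 8 tested genes were higher with ADI-PEG20 (ATF5, ATF3, JDP2, DDIT3, CEBPB, CEBPG and TRIB3) and ATF4 was lower. Across all tested genes, 15.9% were called higher and 15.9% lower in this comparison at an adjusted p of 0.05 (edgeR). The log2 fold changes of the 8 ran from -0.59 to 3.88 with a median of 2.02, against a median of 0.05 over all tested genes. Without the third control library the same 7 were higher and ATF4 was lower, with a median of 2.18, beside 21.8% of genes called higher and 19.8% lower. For each of the 8 the TOM-1 libraries of the 2 groups did not overlap, as was so for 46.2% of all tested genes. In RS4;11 none of the 8 passed the test in either direction, as was so for every tested gene (0.00% called, 325 genes at an unadjusted p under 0.05). The Wald test of DESeq2 on the same 12 libraries also called none, whereas voom with sample quality weights called 17 genes, ATF5 among them. Without the third TOM-1 control library edgeR called 58 of 18321 genes in RS4;11, and 2207 had an unadjusted p under 0.05. ATF5 was the 1 gene of the 8 called there. The fit of the RS4;11 libraries alone called 3 genes, ATF5 among them. The third TOM-1 control library is in neither RS4;11 group, but all groups share 1 estimate of the spread.

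**Figure D1:**
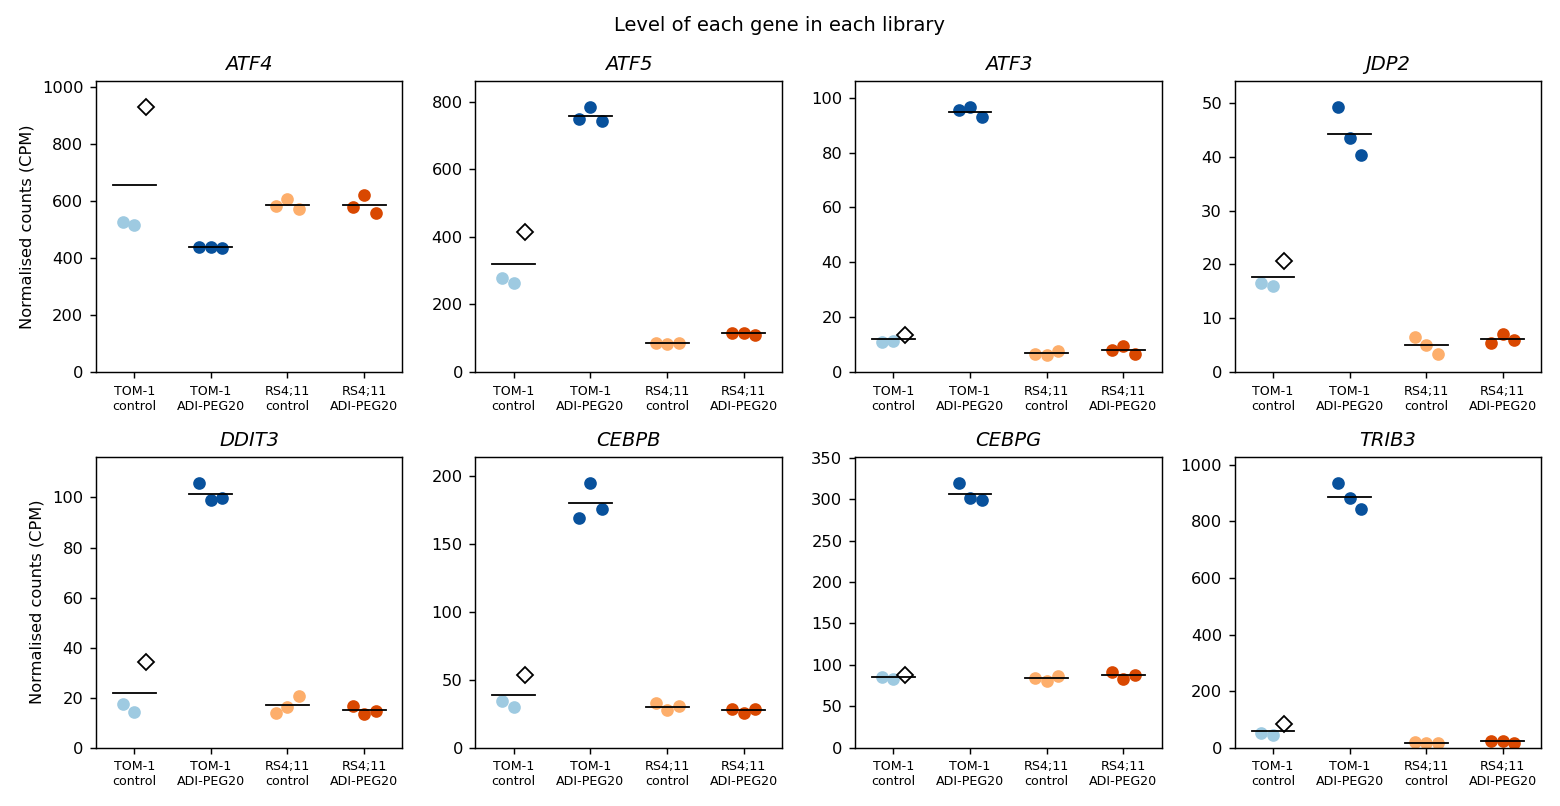
Normalised counts (CPM, linear axis from 0) of the 8 expressed genes in each library by group; points are libraries, the line is the group mean and the open diamond is the third TOM-1 control library. In treated TOM-1 all genes but ATF4 lie above every other library, and RS4;11 with ADI-PEG20 lies at or near RS4;11 control.

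ATF4 (chromosome 22, 39519695 to 39522685, + strand), the factor through which eIF2 alpha phosphorylation reaches transcription, had the highest mRNA level of the set in control culture, and that level did not rise. In TOM-1 control it was 527, 516 and 928 CPM, and with ADI-PEG20 it was 439, 437 and 435 CPM. The treated libraries lay below all controls and close together (coefficient of variation 0.433%), while the third control library lay far above the rest. The log2 fold change was -0.59 (SE 0.19, adjusted p = 0.0327). Without the third control library it was -0.26 (SE 0.06, adjusted p = 0.000646), a level 0.836 times that of control. With all other libraries kept, the call was lost without treated replicate 1 (adjusted p = 0.0772), 2 (0.079) or 3 (0.0819), and also when the 6 TOM-1 libraries were fitted alone (-0.63, adjusted p = 0.142).

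In RS4;11 ATF4 stood at 583, 606 and 573 CPM in control and 581, 621 and 559 CPM with ADI-PEG20, and the groups overlapped. On the log2 scale the change was -0.00 (SE 0.19). The difference between the effects in the lines was -0.59 (SE 0.27, adjusted p = 0.179) and, without the third TOM-1 control library, -0.26 (SE 0.08, adjusted p = 0.0121). Treated TOM-1 was thus the group with the least ATF4 mRNA: against treated RS4;11 its log2 difference was -0.42 (SE 0.19, adjusted p = 0.0843), and without the third TOM-1 control library -0.43 (SE 0.05, adjusted p = 1.43e-07). That call also passed without TOM-1 control replicate 1 (adjusted p = 0.0332) or 2 (0.0277). It passed too when the treated libraries of both lines were fitted alone (-0.43, adjusted p = 1.41e-06) and with voom (-0.44, adjusted p = 7.59e-08). The TOM-1 control libraries enter this comparison only through the shared scaling, filter and estimate of the spread. The lines in control culture did not differ with all libraries (0.16, SE 0.19, adjusted p = 0.557), and TOM-1 was lower without the third control library (-0.17, SE 0.06, adjusted p = 0.013), so the direction turned on that library.

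ATF5 (chromosome 19, 49928702 to 49933935, + strand), the closest relative of ATF4 and a factor also linked to the mitochondrial stress response, moved the other way. TOM-1 control libraries held 278, 265 and 416 CPM and treated ones 749, 783 and 744 CPM. Every treated library was above every control, the high replicate 3 included. The log2 fold change was 1.25 (SE 0.15, adjusted p = 0.000135), and 1.48 (SE 0.06, adjusted p = 2.62e-14) without the third control library.

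ATF5 was also the 1 gene of the 8 whose RS4;11 groups did not overlap. It held 85.9, 82.4 and 86.3 CPM in control and 115, 117 and 111 CPM with ADI-PEG20, all treated libraries above all controls, as was so for 7.72% of tested genes. The log2 fold change was 0.43 (SE 0.15) with an unadjusted p of 0.0158 and an adjusted p of 1 in the fit of all libraries. It passed without the third TOM-1 control library (0.43, SE 0.05, adjusted p = 0.00185), where 37 of 18321 genes (0.202%) were called higher. It also passed in the fit of the RS4;11 libraries alone (0.43, adjusted p = 0.0474). The fold change was the same in these fits, and what differed was its standard error.

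The rise of ATF5 in TOM-1 exceeded that in RS4;11 by 0.82 on the log2 scale (SE 0.21, adjusted p = 0.029). That call was lost when any 1 library other than TOM-1 control replicate 2 or 3 was left out (adjusted p from 0.0527 without TOM-1 control replicate 1 to 0.0996 without treated TOM-1 replicate 2), while leaving out TOM-1 control replicate 3 gave 1.05 (adjusted p = 1.5e-09). The levels ran from treated TOM-1 through TOM-1 control and treated RS4;11 to RS4;11 control, with no overlap between neighbours. TOM-1 was above RS4;11 by 1.91 (SE 0.16, adjusted p = 1.6e-06) in control culture and by 2.73 (SE 0.16, adjusted p = 8.74e-08) with ADI-PEG20. Of its exonic bases 21.2% overlap genes on the opposite strand (IL4I1 and NUP62), and whether counting used strand is not given in the sources used here, so a share of its counts could come from those genes.

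ATF3 (chromosome 1, 212565334 to 212620777, + strand), an early-response repressor and activator that forms dimers with JUN and other bZIP proteins, was scarce in control culture. TOM-1 control libraries held 11.1, 11.2 and 13.4 CPM and treated ones 95.6, 96.4 and 92.9 CPM, a wide gap with little spread inside either group. ATF3 rose by 3.00 on the log2 scale (SE 0.16, adjusted p = 1.22e-06), or 7.99-fold. RS4;11 held 6.74, 6.30 and 7.84 CPM in control and 8.01, 9.62 and 6.504 CPM with ADI-PEG20, and these overlapped (0.21, SE 0.16, adjusted p = 1). The effects in the lines differed by 2.79 (SE 0.23, adjusted p = 7.11e-05). TOM-1 was above RS4;11 by 0.77 in control culture (SE 0.16, adjusted p = 0.00251) and by 3.56 with ADI-PEG20 (SE 0.17, adjusted p = 1.99e-08). The composite element shown above starts at -191.

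JDP2 (chromosome 14, 75427716 to 75474111, + strand), a repressor that pairs with JUN and ATF2 and binds AP-1 and cyclic AMP response elements, rose less than ATF3. TOM-1 control libraries held 16.6, 16.0 and 20.6 CPM and treated ones 49.2, 43.4 and 40.4 CPM. The groups were apart, at a log2 difference of 1.32 (SE 0.21, adjusted p = 0.000703). RS4;11 held 6.52, 5.11 and 3.44 CPM in control and 5.34, 6.995 and 5.94 CPM with ADI-PEG20, which overlapped (0.27, SE 0.22, adjusted p = 1). JDP2 was higher in TOM-1 than in RS4;11 in control culture (1.81, SE 0.22, adjusted p = 4.4e-05) and with ADI-PEG20 (2.86, SE 0.23, adjusted p = 8.85e-07). The difference between the effects in the lines, 1.05 (SE 0.30, adjusted p = 0.0443), was lost when any 1 library other than TOM-1 control replicate 3 or RS4;11 control replicate 3 was left out (adjusted p from 0.0703 without treated RS4;11 replicate 2 to 0.146 without RS4;11 control replicate 1). Leaving out TOM-1 control replicate 3 gave 1.18 (SE 0.25, adjusted p = 0.00102).

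DDIT3 (chromosome 12, 57516588 to 57521737, - strand) encodes CHOP, which pairs with C/EBP proteins and is known for promoting cell death in prolonged stress. TOM-1 control libraries held 17.4, 14.1 and 34.2 CPM and treated ones 106, 99.2 and 99.7 CPM. All treated libraries were above the controls, among which the third was the high one. With all libraries DDIT3 rose by 2.22 on the log2 scale (SE 0.28, adjusted p = 0.000168), and by 2.68 (SE 0.14, adjusted p = 2.63e-12) without that library. In RS4;11 it held 13.7, 16.2 and 20.8 CPM in control and 16.8, 13.6 and 14.9 CPM with ADI-PEG20, with overlap (-0.16, SE 0.28, adjusted p = 1). The difference between the lines was 2.38 (SE 0.39, adjusted p = 0.00295). In control culture the lines did not differ beyond their spread, and the sign changed with the third TOM-1 control library (0.37, adjusted p = 0.338, with it, and -0.09, adjusted p = 0.618, without it). With ADI-PEG20 TOM-1 was higher by 2.75 (SE 0.29, adjusted p = 9.54e-06). Overlapping genes on the opposite strand (MARS1, listed there as MARS, and MBD6) cover 31.6% of its exonic bases and a gene on the same strand covers 8.0%. MARS1 itself rose in treated TOM-1 (253 to 457 mean CPM, log2 fold change 0.85), so a part of the DDIT3 counts is uncertain.

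CEBPB (chromosome 20, 50190734 to 50192689, + strand), a C/EBP factor of inflammation and differentiation and a dimer partner of ATF4 and CHOP, followed DDIT3 closely. TOM-1 control libraries held 34.1, 29.8 and 53.6 CPM and treated ones 169, 195 and 176 CPM. The groups were well apart (log2 fold change 2.20, SE 0.20, adjusted p = 1.54e-05), and without the third control library the value was 2.49 (SE 0.10, adjusted p = 2.59e-14). RS4;11 held 32.6, 27.4 and 30.5 CPM in control and 28.6, 25.8 and 28.8 CPM with ADI-PEG20, which overlapped (-0.12, SE 0.19, adjusted p = 1). The difference between the lines was 2.32 (SE 0.27, adjusted p = 0.000422). Its levels in control culture were not told apart between TOM-1 and RS4;11 (0.37, SE 0.19, adjusted p = 0.151), and with ADI-PEG20 TOM-1 was higher by 2.70 (SE 0.20, adjusted p = 5.3e-07). An antisense gene, CEBPB-AS1, overlaps 11.8% of its exonic bases.

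CEBPG (chromosome 19, 33373330 to 33382686, + strand), a short C/EBP protein without a transactivation domain and a preferred partner of ATF4, gave nearly the same fold change with and without the third control library. It held 85.0, 83.0 and 87.3 CPM in TOM-1 control and 319, 301 and 299 CPM with ADI-PEG20. Here the third control library lay with the other controls, and the log2 fold change was 1.85 (SE 0.10, adjusted p = 1.22e-06) with it and 1.86 (SE 0.07) without it. RS4;11 held 84.6, 80.8 and 86.0 CPM in control and 91.8, 83.5 and 87.8 CPM with ADI-PEG20, again with overlap (0.07, SE 0.10, adjusted p = 1). Both RS4;11 groups and TOM-1 control thus shared one level (TOM-1 against RS4;11 in control culture 0.02, SE 0.10, adjusted p = 0.892), and treated TOM-1 alone stood above it, by 1.81 against treated RS4;11 (SE 0.10, adjusted p = 5.1e-08). The effects in the lines differed by 1.78 (SE 0.14, adjusted p = 6.18e-05). CEBPG holds the composite element at -42 shown above.

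TRIB3 (chromosome 20, 362835 to 397559, + strand), the feedback pseudokinase, had the largest change of the set. TOM-1 control libraries held 50.6, 45.1 and 85.6 CPM and treated ones 935, 881 and 843 CPM. The log2 fold change was 3.88 (SE 0.24, adjusted p = 1.66e-06), or 14.7-fold, and 4.21 (SE 0.11, adjusted p = 9.65e-17), or 18.5-fold, without the third control library. Ordered by CPM among all genes, TRIB3 moved from places 2722 to 5004 in the TOM-1 control libraries to places 80 to 94 in the treated ones. RS4;11 held 19.6, 18.3 and 16.8 CPM in control and 24.2, 25.02 and 17.2 CPM with ADI-PEG20; of the treated libraries 2 lay above all controls and the third lay among them. This amounted to 0.28 on the log2 scale (SE 0.22, adjusted p = 1) and did not pass without the third TOM-1 control library either (0.28, SE 0.11, adjusted p = 0.251). The effects differed by 3.60 (SE 0.32, adjusted p = 7.55e-05). TOM-1 was above RS4;11 by 1.72 in control culture (SE 0.23, adjusted p = 7.81e-05; 1.39 without the third control library) and by 5.32 with ADI-PEG20 (SE 0.26, adjusted p = 2.45e-08).

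NUPR1 (chromosome 16, 28532708 to 28539174, - strand), a nuclear protein induced by stress in many cell types, had 0 counts in each of the 12 libraries. A count of 0 allows up to 3 counts, which is 0.0853 to 0.166 CPM at these depths and covers counting error only. No fold change can be given in either line.

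**Figure D2:**
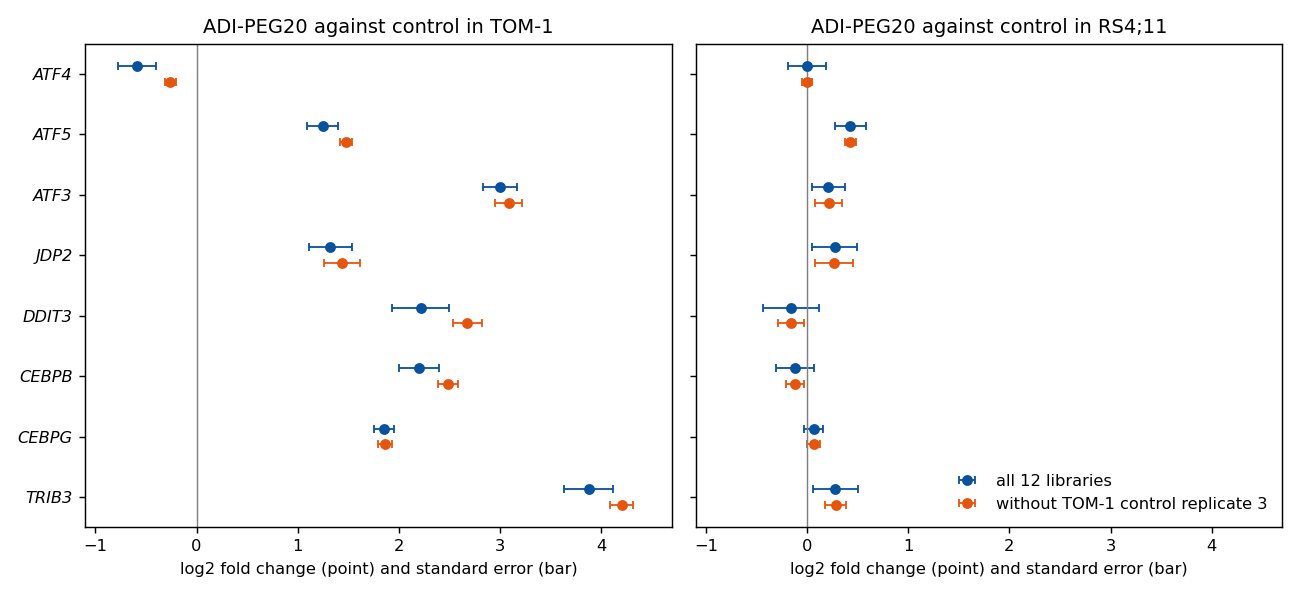
log2 fold change of each of the 8 tested genes with ADI-PEG20 against control (point) and its standard error (bar) in TOM-1 (left) and RS4;11 (right), with all 12 libraries and without the third TOM-1 control library. With all libraries the TOM-1 values run from -0.59 for ATF4 to 3.88 for TRIB3, which lies at 4.21 in the second fit, and in RS4;11 both fits run from -0.16 for DDIT3 to 0.43 for ATF5.

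Between the lines, 7 of the 8 genes responded more strongly in TOM-1 by the test of the difference itself and ATF4 did not pass, where 5.89% of all tested genes were called higher in that direction and 6.05% in the other. Without the third TOM-1 control library all 8 passed, 7 higher and ATF4 lower, beside 15.7% and 14.7% of genes. The number called was 5 with DESeq2 size factors, where ATF5 (adjusted p = 0.051) and JDP2 (0.0585) did not pass. In control culture 4 of the 8 (ATF5, ATF3, TRIB3 and JDP2) were already higher in TOM-1 and none was lower, beside 16.2% of genes called higher and 18.4% lower. With ADI-PEG20 the count was 7 higher and none lower, beside 23.1% and 24.0%. Without the third TOM-1 control library ATF4 was called lower in both, giving 4 higher and 1 lower in control culture (25.4% and 27.5% of genes) and 7 higher and 1 lower with ADI-PEG20 (31.4% and 31.5%). These comparisons share libraries with one another, so they are not separate evidence.

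Counts per kilobase of exon allow the genes to be set against one another within a library. The mRNA of the 8 summed to 374, 358 and 615 CPM per kilobase in TOM-1 control, 972, 970 and 934 in treated TOM-1, and 313 to 340 in all RS4;11 libraries. ATF4 made up 56.1%, 57.3% and 60.0% of that sum in TOM-1 control and 18.0%, 17.9% and 18.5% with ADI-PEG20. TRIB3 went from 3.94%, 3.67% and 4.05% to 28.02%, 26.4% and 26.3%. In RS4;11 ATF4 stayed the main component, with 72.2% to 75.0% in control and 70.4% to 72.7% with ADI-PEG20, and ATF5 went from between 8.68% and 9.26% to between 11.6% and 11.97%. In TOM-1 each treated library had a higher sum than any control, and less ATF4.

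**Figure D3:**
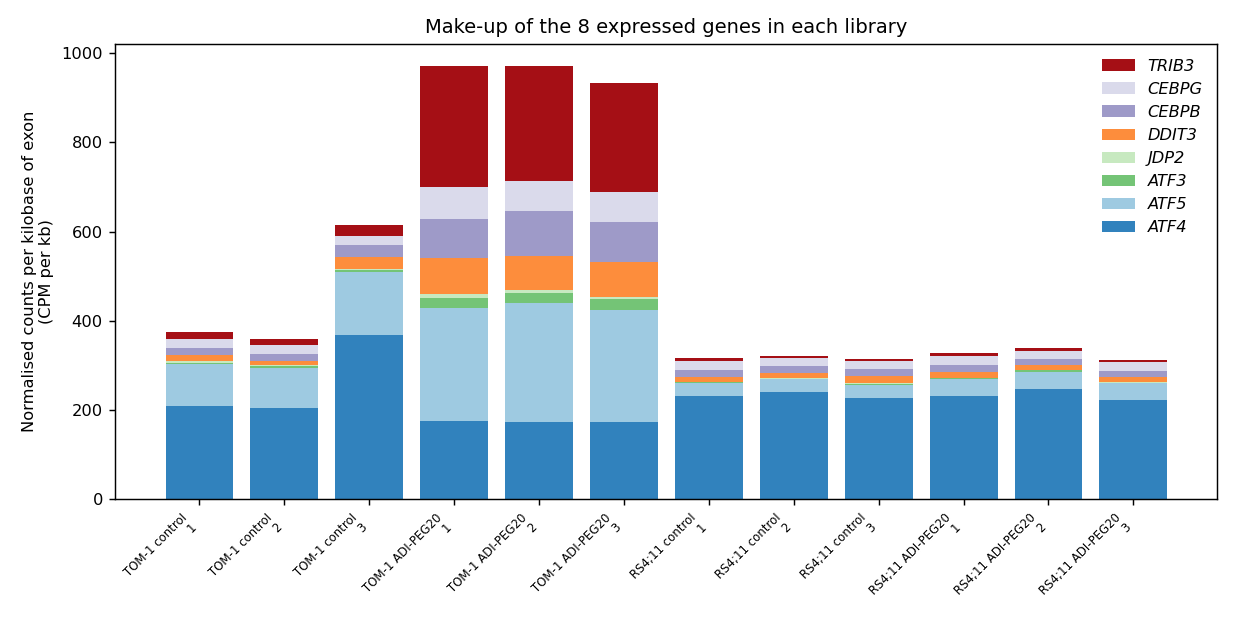
Stacked levels per length (CPM per kilobase of exon, axis from 0) of the 8 expressed genes in each of the 12 libraries. The 3 treated TOM-1 libraries reach 934 to 972 CPM per kilobase, with TRIB3 and ATF5 each larger than ATF4, and ATF4 makes up most of every other bar.

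The ratio of ATF5 to ATF4 per kilobase was 0.449, 0.436 and 0.381 in TOM-1 control and 1.45, 1.52 and 1.46 with ADI-PEG20. It was 0.125, 0.116 and 0.128 in RS4;11 control and 0.169, 0.160 and 0.169 with ADI-PEG20, a smaller shift but again without overlap. This ratio is formed within a library, and the third TOM-1 control library lay just below the other controls in it. The ratio of TRIB3 to ATF4 went from 0.0702, 0.064 and 0.0675 to 1.56, 1.47 and 1.42 in TOM-1. TRIB3 to DDIT3 went from 1.105, 1.22 and 0.952 to 3.37, 3.38 and 3.22, so every treated library held more TRIB3 per DDIT3, a factor known to induce it together with ATF4, than any control. CEBPB to CEBPG, C/EBP proteins with and without a transactivation domain, was 0.904, 0.811 and 1.39 in TOM-1 control and 1.19, 1.46 and 1.33 with ADI-PEG20, and these overlapped because of the third control library.

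Genes known as targets of ATF4 and CHOP were described from a list of 45, of which 43 were tested. In TOM-1 31 were higher, 1 was lower and 11 did not pass, with a median log2 fold change of 1.11 against 0.05 over all tested genes. Of all tested genes 15.9% were called higher and 15.9% lower. Without the third control library 36 were higher and 4 lower, beside 21.8% and 19.8% of all tested genes. By the rule for named genes the leading ones were PPP1R15A (GADD34), the subunit that directs dephosphorylation of eIF2 alpha, STC2, a secreted glycoprotein, and TNFRSF10B, the death receptor DR5. PPP1R15A went from 31.7 ± 11.1 to 249 ± 5.69 CPM (mean ± SD, n = 3; log2 fold change 2.97, adjusted p = 3.01e-06 by edgeR). STC2 went from 55.0 ± 6.24 to 286 ± 1.92 CPM (2.38) and TNFRSF10B from 21.3 ± 4.82 to 108 ± 5.73 CPM (2.33). CHAC1, which degrades glutathione, rose by 1.98 (SE 0.16, adjusted p = 7.38e-06), and SESN2, a leucine sensor that restrains mTORC1, by 2.09 (SE 0.12, adjusted p = 1.22e-06). ALDH18A1, which makes proline precursors from glutamate, fell from 213 ± 16.0 to 105 ± 2.00 CPM (-1.03, adjusted p = 4.01e-05).

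ASNS, asparagine synthetase and the classical ATF4 target, was scarce, with 0.808 ± 0.800 CPM in TOM-1 control and 5.13 ± 0.481 CPM with ADI-PEG20 (n = 3). Its log2 fold change was 2.63 (SE 0.91, adjusted p = 0.0448), and 2.09 (adjusted p = 0.005) without the third TOM-1 control library. The call was lost without TOM-1 control replicate 1, any treated TOM-1 library or any RS4;11 library but the third control (adjusted p from 0.0575 without treated RS4;11 replicate 3 to 0.116 without treated TOM-1 replicate 2). It was also lost when the TOM-1 libraries were fitted alone (adjusted p = 0.105). The difference between the effects in the lines did not pass (2.19, SE 1.31, adjusted p = 0.315, and 0.134 without the third TOM-1 control library). It passed only without that library and with the replicate block together (2.05, adjusted p = 0.0422). Another gene on the same strand overlaps 44.6% of its exonic bases, so its counts are uncertain. In RS4;11 none of the 43 passed with all libraries. Every treated RS4;11 library lay above every control for CHAC1, SESN2, DDIT4, SLC7A11, SLC7A1, PSAT1, PCK2, VLDLR, VEGFA, WARS1, NIBAN1 and HERPUD1. These were a larger share of the tested targets than the 7.72% of all tested genes, which was not tested. The median log2 fold change of the targets in RS4;11 was 0.08, against 0.0007 over all tested genes. CHAC1 went from 5.91 ± 0.391 to 8.69 ± 1.81 CPM (log2 fold change 0.56) and SESN2 from 23.4 ± 1.67 to 27.6 ± 1.31 CPM (0.24). TNFRSF10B (-0.40) and PYCR1 (-0.12) had every treated library below every control. Without the third TOM-1 control library SLC7A11 and WARS1 passed as higher in RS4;11 (both adjusted p = 0.00959). In that fit 0.202% of all tested genes were called higher. Of the targets named for RS4;11, all but CHAC1, SESN2 and TNFRSF10B were chosen for naming after their values were seen. By the test of the difference, 22 targets had a higher effect in TOM-1 and 1 had a lower one, ALDH18A1 (-0.89, adjusted p = 0.00298). This stood beside 5.89% and 6.05% of all tested genes. Without the third control library the counts were 33 and 3, beside 15.7% and 14.7%.

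**Figure D4:**
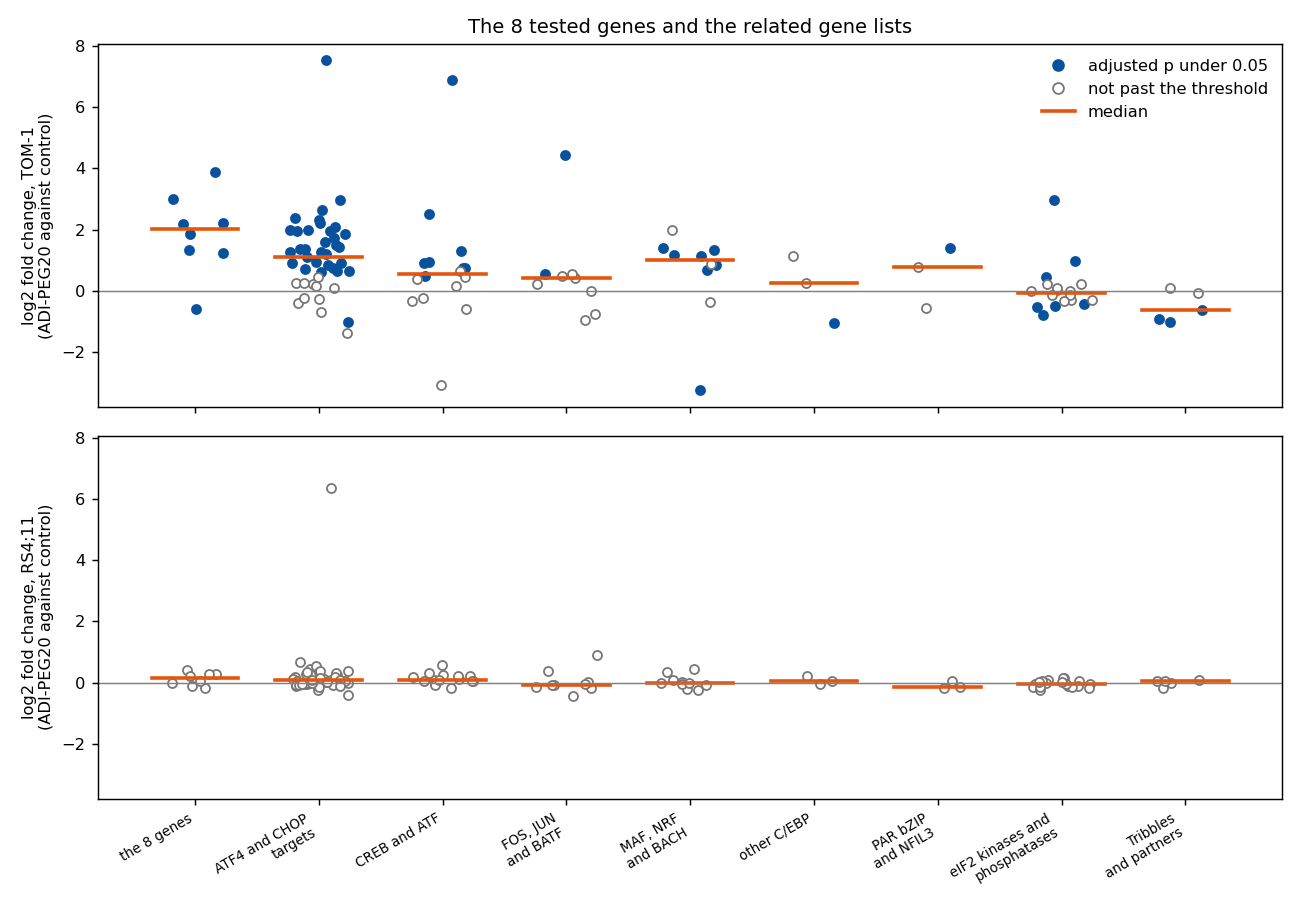
log2 fold change with ADI-PEG20 of the 8 tested genes and of the genes of each related list in TOM-1 (upper) and RS4;11 (lower); filled points passed an adjusted p of 0.05, open points did not, and the bar is the median of the list. In TOM-1 most target genes lie above 0, with a median of 1.11, and in RS4;11 no point is filled; the points beyond 6 (GDF15 and CREB5 in TOM-1, NIBAN1 in RS4;11) are genes at or near 0 counts in control.

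The other bZIP factors were read from 4 further family lists with the rest of the C/EBP family (CEBPZ, which lacks the bZIP domain, left out), 47 genes of which 40 were tested. In TOM-1 17 were higher and 2 lower, with a median log2 fold change of 0.61, where 15.9% of all tested genes were called in each direction. Without the third control library the counts were 24 and 3, beside 21.8% and 19.8%. Of the CREB and ATF family 8 of 16 were higher and none lower (10 and 1 without that library). CREBRF, a regulator that binds CREB3, led with 12.4 ± 5.47 to 70.7 ± 4.13 CPM (2.50, adjusted p = 6.54e-05, n = 3). ATF6, a sensor of the unfolded protein response (1.29, adjusted p = 0.00043), and CREB3L2 (0.95, adjusted p = 0.00927), a membrane-bound relative of ATF6, followed. The CREB3L2 call was lost when the TOM-1 libraries were fitted alone (adjusted p = 0.0759). Of the FOS, JUN and BATF family 2 of 9 were higher, a share near that of all tested genes, and 5 without the third control library. JUN, the main AP-1 subunit and a dimer partner of ATF3 and JDP2, rose from 4.04 ± 1.78 to 89.3 ± 8.38 CPM (4.44, SE 0.28, adjusted p = 1.91e-06). FOSL2 passed with 0.54 (adjusted p = 0.0401; 0.35, adjusted p = 0.014, without the third control library), a call lost without any 1 library but TOM-1 control replicates 1 and 3 (adjusted p from 0.0558 without RS4;11 control replicate 1 to 0.157 without treated TOM-1 replicate 1).

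Of the MAF, NRF and BACH family, whose members act through antioxidant and MAF elements, 6 of 10 were higher and 1 lower. Over all tested genes 15.9% were called in each direction. Without the third control library 7 were higher and 1 lower, beside 21.8% and 19.8% of all tested genes. BACH2, a transcriptional repressor of B cells, rose by 1.40 (SE 0.27, adjusted p = 0.00216), NRL by 1.34 (SE 0.29, adjusted p = 0.00434) and NFE2L1, which controls proteasome genes, by 1.19 (SE 0.13, adjusted p = 8.04e-05). Without the third control library BACH2 rose by 1.07 (SE 0.08). In RS4;11 BACH2 went from 21.6 ± 1.28 to 29.2 ± 2.68 CPM without overlap (0.44, SE 0.27, n = 3). With all libraries it did not pass there. Without the third TOM-1 control library it passed (adjusted p = 0.0255), as the 1 gene of the 40 other bZIP factors tested. In that fit 37 of 18321 tested genes (0.202%) were called higher. MAFF, a small MAF protein, responded more in TOM-1 than in RS4;11 by 1.36 (adjusted p = 0.0331), a call lost without any 1 library but TOM-1 control replicates 1 and 3 and RS4;11 control replicate 3 (adjusted p from 0.0554 without TOM-1 control replicate 2 to 0.104 without RS4;11 control replicate 2). Of the tested genes of the PAR bZIP and NFIL3 list (DBP, TEF and NFIL3) TEF alone was higher (1.42, adjusted p = 0.000188), and NFIL3 passed too without the third control library (adjusted p = 0.0014). CEBPA, the C/EBP factor of myeloid differentiation, fell from 15.2 ± 3.25 to 7.27 ± 3.18 CPM (-1.05, SE 0.28, adjusted p = 0.012, n = 3), while CEBPB and CEBPG of the same family rose. CEBPD was not tested because of its low counts.

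Of 18 genes around eIF2 alpha (kinases, phosphatase subunits and exchange factor), 3 were higher and 4 lower in TOM-1, with a median of -0.07, shares near the 15.9% called in each direction over all tested genes. Without the third control library the counts were 5 and 8, beside 21.8% and 19.8%. Besides PPP1R15A the higher ones were PPP1R15B, its constitutive counterpart (0.98, adjusted p = 0.0181; 0.64, adjusted p = 1.42e-07, without the third control library), and OMA1, a mitochondrial protease upstream of the kinase HRI (0.46, adjusted p = 0.0253). EIF2B5, a subunit of the exchange factor, fell from 103 ± 7.002 to 59.6 ± 1.84 CPM (-0.79, adjusted p = 0.000188, n = 3). GCN1, which activates GCN2, changed by -0.53 (adjusted p = 0.0119) and EIF2AK1, which encodes HRI, by -0.48 (adjusted p = 0.0148). Calls were lost for PPP1R15B without treated TOM-1 replicate 1 (adjusted p = 0.0538), 2 (0.054) or 3 (0.0559), for GCN1 without treated replicate 1 (0.0506) and for EIF2AK1 without treated replicate 3 (0.06). The OMA1 call was lost without any 1 library but TOM-1 control replicates 1 and 3 (adjusted p from 0.0519 without treated RS4;11 replicate 3 to 0.122 without treated TOM-1 replicate 2). EIF2S3, the gamma subunit of eIF2, had an effect in TOM-1 below that in RS4;11 by -0.49 on the log2 scale (adjusted p = 0.0312). That call was lost without any 1 treated TOM-1 library, any 1 RS4;11 control library, or treated RS4;11 replicate 1 or 2 (adjusted p from 0.0646 without RS4;11 control replicate 2 to 0.0849 without treated TOM-1 replicate 3). EIF2S3 was at 715 ± 27.9 and 529 ± 13.4 CPM in TOM-1 and 590 ± 21.8 and 614 ± 30.6 CPM in RS4;11 (control and treated, n = 3).

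Of 5 genes around TRIB3, none was higher and 3 were lower in TOM-1, also without the third control library, where 15.9% and 19.8% of all tested genes were called lower with and without it. AKT1, a kinase that TRIB3 binds, fell from 161 ± 24.8 to 79.7 ± 4.04 CPM (-1.01, SE 0.13, adjusted p = 0.000146, n = 3), and AKT2 from 178 ± 4.79 to 115 ± 3.36 CPM (-0.63, SE 0.09, adjusted p = 0.00043). TRIB2, a relative of TRIB3, passed at -0.92 (adjusted p = 0.0423), a call lost without TOM-1 control replicate 1 (0.118) or 2 (0.0901) or without treated replicate 1 (0.126), 2 (0.125) or 3 (0.0783), and it had 0 counts in all RS4;11 libraries. Among 6 tested genes of a list drawn up for regulators of ATF4 protein, 2 were higher, beside 15.9% of all tested genes. Without the third control library 2 were higher and 1 lower, beside 21.8% and 19.8%. Counts this small cannot tell the list apart from all tested genes. Whether each of these genes acts on ATF4 protein was not tested. UFM1 rose by 0.81 (SE 0.14, adjusted p = 0.00101). EP300 changed by 1.31 (SE 0.46, adjusted p = 0.0467), was at 107 ± 71.8 CPM in TOM-1 control (0.84, adjusted p = 3.94e-08, without the third control library), and lost its call without any 1 treated TOM-1 or RS4;11 library (adjusted p from 0.0667 without RS4;11 control replicate 1 to 0.109 without treated TOM-1 replicate 1).

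The genes most like each member across the 12 libraries were found among 10542 genes by the root mean square difference of centred log2 CPM, where a smaller value is a closer match. DDIT3 and CEBPB were each other's nearest gene (0.188), also without the third TOM-1 control library. CEBPG was nearest to MAP1LC3B (0.103), which encodes an autophagosome protein, and ATF3 to PPP1R15A (0.246) and SESN2 (0.352). ATF5 and JDP2 lay near each other (0.228), with TPD52 slightly nearer to ATF5 (0.223). Without the third TOM-1 control library JDP2 took place 15 and TPD52 place 8 for ATF5, and ATF5 place 4 for JDP2. TRIB3 had no close match, its nearest gene JUN being at 0.579 and ERN1 at 0.593. ATF4 was matched closely by GTF2F1 (0.043), a general transcription factor subunit, then ATP5F1C (0.058). These 2 took places 4 and 17 without the third TOM-1 control library, which is high for all of them. The 12 libraries fall in 4 groups of which 1 stands apart, so this likeness mostly describes the group means and is given without a test.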

How the data were processed

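RNA was measured in 12 libraries, 3 in each of 4 groups, grouped by the sample titles and matched to the columns of the table through the sample descriptions. The deposited file is a table of unnormalized counts, whole numbers of reads per Ensembl gene. The submitters' processing notes name STAR, SAMtools, featureCounts and the build hg38; the annotation release, the counting options and the use of strand are not given in the sources used here. Per the labels' protocols, RNA was column-extracted and captured by poly(A).

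Of 60664 genes, 60463 had a symbol in an Ensembl table. GENCODE release 29 (GRCh38) gave positions, exon lengths and overlaps for 58396. Counts were scaled to CPM by TMM after filterByExpr, and fitted in R 4.3.3 with the quasi-likelihood test of edgeR 4.0.16, 1 group-means model over all 12 libraries, 5 contrasts and Benjamini-Hochberg adjustment over all tested genes at 0.05. The SE of a log2 fold change was obtained as |log2 fold change| over the square root of the F statistic. Levels between genes are per kilobase of exon. Likeness used log2 CPM (prior count 2) and genes with a mean of at least 5 CPM. Floors are 3 counts. Alternatives were each library left out, DESeq2 size factors, no filter, a mean of 10 counts, DESeq2 1.42.0, the compared libraries alone, the replicate number as a block, voom of limma 3.58.1 with quality weights and length offsets (lowess, span 0.3); combinations without the third TOM-1 control library were chosen after seeing the data. Scripts were tested on simulated data.

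The 9 genes, the lists and the tests were chosen with earlier results of these data known. From each list the text names up to 3 genes per direction with the largest change among those past the threshold, at a mean of 5 CPM or more and without overlap between the groups, for TOM-1 and for the difference between the lines, besides ASNS, CHAC1 and SESN2. No 2 libraries of a group agreed within sampling noise.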

Additional observations from a re-analysis of the deposited data

Results flagged for a closer look

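By the interaction test of edgeR (adjusted p under 0.05), the ADI-PEG20 effect differed between TOM-1 and RS4;11 for 26 of the genes named here. Passing this test was also a ground for naming genes of the lists, so the count of 26 was partly fixed in advance. It does not measure how common such differences were. Over all tested genes 5.89% were called higher and 6.05% lower by this test. Each value below is the log2 effect in TOM-1 minus that in RS4;11. Among the stress factors the differences were 3.60 for TRIB3, 2.79 for ATF3, 2.38 for DDIT3, 2.32 for CEBPB, 1.78 for CEBPG, 1.05 for JDP2 and 0.82 for ATF5. Among target genes they were 3.07 for PPP1R15A, 2.73 for TNFRSF10B, 2.08 for STC2, 1.85 for SESN2, 1.42 for CHAC1 and -0.89 for ALDH18A1. Among other bZIP genes they were 3.54 for JUN, 2.27 for CREBRF, 1.36 for MAFF, 1.35 for TEF, 1.34 for NRL, 1.23 for ATF6, 1.22 for NFE2L1 and -1.29 for CEBPA. For AKT1 the difference was -0.85, for AKT2 -0.68, for EIF2B5 -0.65, for EIF2S3 -0.49 and for UFM1 0.81. Several fits that left out 1 treated TOM-1 or 1 RS4;11 library lost the calls for the stress factors JDP2 (adjusted p up to 0.146) and ATF5 (0.0996). Such fits also lost those for NRL (0.13), CEBPA (0.111), MAFF (0.104), EIF2S3 (0.0849) and UFM1 (0.0732). All these differences use the third TOM-1 control library.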

How the results depend on the processing

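For the 40 log2 fold changes of the 8 tested genes (5 contrasts), 912 values were recomputed: 831 kept their direction and their side of the threshold, 29 lost the call, 19 gained it and 33 changed sign. Over 18 pairs, same-numbered deviations correlated between -0.062 and 0.145, 1 above 0.1. In the KMT2A-rearranged line the same-numbered control and treated libraries gave 0.057, 0.031 and 0.145. There the third library of each group gave -0.095 to -0.05 against unlike-numbered libraries of the other group. The other unlike-numbered pairs gave 0.027 and 0.055. Without the third TOM-1 control library the replicate block moved the genes called there from 58 to 209. Whether the replicate number marks a shared effect was not tested. With all libraries and the replicate block the ATF4 call was lost (-0.56, adjusted p = 0.0508), as was that of the JDP2 difference (1.02, adjusted p = 0.0736). With length offsets the JDP2 difference was also lost (0.83, adjusted p = 0.157).

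Genes called in TOM-1 were 2639 when the 6 libraries were fitted alone and 8434 with voom (3960 to 7616 when 1 library was left out). In RS4;11 they were 3 alone, 17 with voom, 0 to 58 with 1 library left out, and, without the third TOM-1 control library, 31 with DESeq2 size factors, 209 with the replicate block and 17 with length offsets. Of the stress factors, 1 (ATF5) was called in each of these 5 settings, and 0 to 1 with 1 library left out. For the difference the counts were 2072 in the main fit, 3228 with DESeq2, 5868 with voom, 1169 to 5567 with 1 library left out, and 5503, 5719 and 5389 in the 3 combined settings (size factors, replicate block, length offsets). For the lines in control culture they were 6014, 3548 alone, 10037 with voom, 4731 to 9681 with 1 library left out, and 9684, 9657 and 9388 combined. The difference cannot be fitted on fewer than all groups, so that alternative was not run.

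Sign changes concerned values near 0 or the third TOM-1 control library. ATF4 in RS4;11 (-0.0016) was 0.0052 with DESeq2 size factors, 0.0108 without a filter, 0.00036 with a filter on 10 counts, 0.0055 with DESeq2, 0.0017 alone, 0.00064 with voom, 0.017 with length offsets, 0.0029 and 0.00901 combined (size factors, length offsets), and -0.0443 to 0.0346 with 1 library left out. ATF4 between the lines in control culture (0.16) was -0.17 with voom, -0.19 and -0.19 combined with size factors and the replicate block, -0.0917 with length offsets, and -0.17 to 0.27 with 1 library left out. DDIT3 in that contrast was -0.11, -0.0564 and -0.0869 combined and -0.0924 to 0.57 with 1 left out, and in RS4;11 -0.28 to 0.0126. CEBPG between the lines (0.02) was -0.017 and -0.00011 combined (size factors, replicate block) and -0.0404 to 0.0346 with 1 left out. The cause of these changes was not tested. Depth limits NUPR1, for which 0 counts allow up to 3 counts in a library.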
